A study of Mus musculus with 12 samples.

Results

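The genes described here are 10 immediate early genes: the AP-1 subunit genes Jun, Junb, Jund, Fos, Fosb and Fosl2, the related Atf3, and Egr1, Ier2 and Ier3. They were chosen by name, with earlier results of these data known. Each gene is represented by the probe set that carries its symbol alone, and where a gene has several such probe sets, by the one with the highest mean over all 12 arrays. Of the 10 genes, 9 had a value among the 30142 named genes, and each of the 9 had 1 probe set. Junb had only a probe set shared with a second gene and is given no value. A filter on dim genes, above the 25th percentile of the array on at least 6 of the 12 arrays, kept 24265 genes, among them 8 of the 10. Fos lay below it.

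Total RNA of mouse megakaryocytes, the platelet-forming cells, was measured. The cells were grown in culture from bone marrow hematopoietic stem cells of male C57BL/6 mice. There were 6 arrays of cells treated with dexamethasone, a synthetic glucocorticoid, at 100 nM for 6 h, and 6 arrays of cells given its vehicle for 6 h. Before treatment all cells were grown for 3 days with thrombopoietin at 100 ng per ml, kept overnight with 10% charcoal-stripped serum, and separated on an albumin gradient on day 4. Both groups came from the same 6 cultures, each split between the 2 treatments, and a culture is called here by the replicate number its 2 arrays share. These are cells made in culture. The labels do not say which cultures had mice in common, so the p-values measure the spread between cultures.

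Immediate early genes are switched on within minutes of a stimulus, without new protein synthesis, mostly through MAP kinases and the serum response factor SRF with its ELK partners. Their RNA is short-lived. Several encode transcription factors: JUN and FOS proteins pair through leucine zippers to form AP-1, which drives growth and inflammatory genes. The glucocorticoid receptor is known to restrain AP-1 by binding to it, and it also induces genes that act on the kinase pathway above it.

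The values are the authors' deposited log2 values, with array medians between 5.57 and 5.67. Within a group, pairs of arrays had Pearson's r of 0.990 to 0.994 across probe sets. Negative control probe sets had medians between 6.15 and 6.39 and 95th percentiles between 9.98 and 10.39, which serve here as a scale for dim signal. The megakaryocyte markers with a value, 10 of 12, had a mean level between 15.93 and 16.20 on dexamethasone arrays and between 15.97 and 16.21 on vehicle arrays. All 8 genes of a list of known glucocorticoid response genes rose, by 1.24 to 5.46 on the log2 scale. That list was chosen with these results known, and it holds Dusp1 and Tsc22d3, which are described again below in other lists.

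After 6 h of dexamethasone, Egr1, a zinc finger transcription factor, rose 1.48-fold and Ier3, a regulator of survival under stress, fell 1.26-fold. The other 6 tested genes (Jun, Jund, Fosb, Fosl2, Atf3 and Ier2) did not pass the threshold, an adjusted p under 0.05 from limma with culture as a block. Thus 1 of 8 rose and 1 of 8 fell. Cells were measured at 6 h only, so a change that came and went earlier would not be seen. Of all 24265 genes tested 12.0% passed, 7.39% higher and 4.56% lower in dexamethasone, and with 8 genes the count is too small to set apart from these shares. Higher genes made up 61.9% of all calls as deposited and 44.9% after quantile normalization. The median change of the 8 genes was 0.05, against -0.01 for all genes tested. The RNA came from the gradient-separated cells of each culture in bulk, in which fewer cells of a type and less RNA per cell cannot be told apart.

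Egr1 is induced by mitogens and is also used in megakaryocyte and macrophage development. In cultures 1 to 6 its log2 value was 7.59, 7.48, 7.58, 7.41, 7.50 and 7.50 with dexamethasone, against 7.19, 6.94, 6.73, 7.07, 6.87 and 6.90 with vehicle. Every dexamethasone array lay above every vehicle array, and Egr1 was the only one of the 8 tested genes whose groups did not overlap, against 6.73% of all genes tested, 4.10% with dexamethasone higher and 2.63% with it lower. The means were 7.51 ± 0.06 in dexamethasone and 6.95 ± 0.16 in vehicle (log2, SD, n = 6). The change was 0.56 (SE 0.07, 95% interval 0.41 to 0.72), with a limma adjusted p of 0.000867, and it was seen in 6 of 6 cultures. It was smallest in culture 4, at 0.35, and largest in culture 3, at 0.85. Culture 3 had the lowest vehicle level, and the levels of the 6 cultures lay closer together with dexamethasone than with vehicle. Of all genes tested, 344 had a higher change. On each of the 12 arrays Egr1 was brighter than the median negative control and dimmer than their 95th percentile.

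Ier3, also known as IEX-1, is an early response gene whose product modulates ERK signalling and cell death. It measured 7.98, 7.96, 8.01, 8.09, 7.83 and 7.90 in cultures 1 to 6 with dexamethasone, against 8.48, 8.0, 8.13, 8.26, 8.48 and 8.43 with vehicle. Dexamethasone gave the lower value in 6 of 6 cultures, but the groups overlapped, since vehicle culture 2 lay within the dexamethasone range. The cultures formed a wide range of changes, near 0 in culture 2 (-0.04) and -0.65 in culture 5. Means were 7.96 ± 0.09 in dexamethasone and 8.30 ± 0.20 in vehicle (log2, SD, n = 6), a change of -0.34 (SE 0.09, 95% interval -0.54 to -0.14). Its limma adjusted p was 0.0393, near the threshold. The call was lost under 7 of 18 other settings, among them without culture 1, 4, 5 or 6, with adjusted p of 0.095, 0.0624, 0.0879 and 0.104, while the change stayed between -0.46 and -0.27 under all 18. Of 10 neutrophil markers, measured after the albumin gradient, 4 fell and none rose, while of all genes tested 4.56% fell and 7.39% rose. The number that fell was 2 without culture 1, 3 or 4, and 1 without cultures 2 and 3 together or with no replicate block. Their mean level lay between 6.49 and 7.62 on dexamethasone arrays and between 6.99 and 7.92 on vehicle arrays. The neutrophil proteins' genes S100a8 and S100a9 fell most in culture 2, by 1.33 and 1.86 on the log2 scale. On all arrays 1 of the 10 was dimmer than the median negative control. The calls of S100a8, S100a9 and Camp held under 8, 11 and 16 of 18 other settings, and that of Ltf under 17 of the 17 in which it was tested. The part of these markers in the result was not tested.

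**Figure D1:**
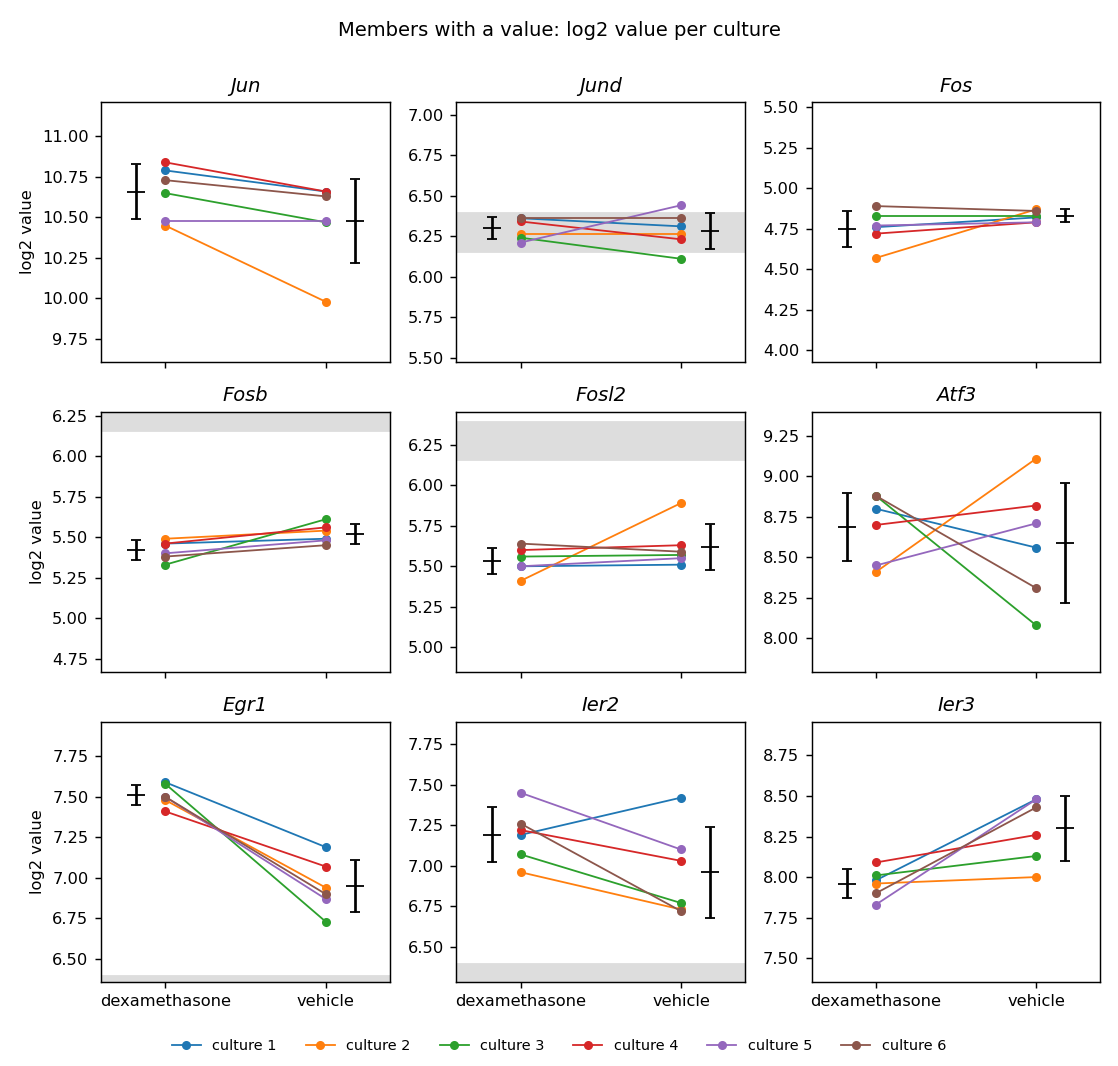
Log2 values of the 9 genes with a value, dexamethasone at left and vehicle at right in each panel, with 1 line per culture and the mean ± SD (n = 6) beside each group; panels share the length but not the position of the axis, and the grey band is the range of the negative control medians, 6.15 to 6.39. Egr1 lay higher in dexamethasone in all 6 cultures and Ier3 lower in all 6, while the lines of Atf3 cross.

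Jun, the main partner in AP-1, was the brightest of the 9 genes. Its values were 10.79, 10.45, 10.65, 10.84, 10.48 and 10.73 in cultures 1 to 6 with dexamethasone, and 10.66, 9.98, 10.47, 10.66, 10.48 and 10.63 with vehicle. The groups overlapped, and vehicle culture 2 stood apart as the lowest. Means were 10.66 ± 0.17 in dexamethasone and 10.48 ± 0.26 in vehicle (log2, SD, n = 6). The change of 0.18 had a 95% interval from 0.04 to 0.32, which leaves out 0, but its adjusted p over all genes tested was 0.104 by limma. It was positive in 5 of 6 cultures, and without culture 2 it was 0.12. Jun was also the only one of the 9 above the 95th percentile of the negative controls on any array, on 11 of 12.

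Jund, a JUN family member usually present in resting cells, sat at the level of the negative controls. It averaged 6.30 ± 0.07 in dexamethasone and 6.28 ± 0.11 in vehicle (log2, SD, n = 6), and 3 of 6 arrays in each group lay above the negative control median. The change was 0.01, with a 95% interval from -0.12 to 0.14 and a limma adjusted p of 0.913.

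The FOS family genes were dim. FOS proteins cannot pair with each other and need a JUN partner. Fos measured 4.76, 4.57, 4.83, 4.72, 4.77 and 4.89 in cultures 1 to 6 with dexamethasone, against 4.82, 4.87, 4.83, 4.79, 4.79 and 4.86 with vehicle. All 12 values lay below the negative control median of their array, as did all 12 of Fosb and all 12 of Fosl2, and the groups of each gene overlapped. Fosb ranged from 5.33 to 5.49 in dexamethasone and from 5.45 to 5.61 in vehicle. Fosl2, which encodes FRA-2, ranged from 5.41 to 5.64 in dexamethasone and from 5.51 to 5.89 in vehicle. Their differences were small: -0.10 for Fosb (95% interval -0.21 to 0.01, limma adjusted p of 0.228) and -0.09 for Fosl2 (-0.25 to 0.07, adjusted p of 0.471). Fosb was lower in dexamethasone in 6 of 6 cultures, and an exact sign-flip permutation test of its paired differences gave p = 0.03125, two-sided, the smallest that 6 pairs allow. In a fit without the filter Fos differed by -0.07, with a 95% interval from -0.19 to 0.05. Levels this low limit what the arrays can show of these 3 genes.

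Atf3, a stress-induced factor that pairs with JUN proteins and often represses, varied most from culture to culture. Its values were 8.80, 8.41, 8.88, 8.70, 8.45 and 8.88 in cultures 1 to 6 with dexamethasone, against 8.56, 9.11, 8.08, 8.82, 8.71 and 8.31 with vehicle. Dexamethasone was higher in 3 cultures and lower in 3, and the differences ran from -0.69 in culture 2 to 0.80 in culture 3. The mean change of 0.09 had a 95% interval from -0.31 to 0.49, the widest of the 8 genes tested, and a limma adjusted p of 0.779. Its SD was the largest of the 9 genes in both groups, 0.21 in dexamethasone and 0.37 in vehicle.

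Ier2, an early response gene with a nuclear product, leaned upward without passing the threshold. It measured 7.19, 6.96, 7.07, 7.22, 7.45 and 7.26 with dexamethasone and 7.42, 6.73, 6.77, 7.03, 7.10 and 6.72 with vehicle in cultures 1 to 6. Culture 1, with the highest vehicle value, was the only one in which dexamethasone was lower, and the groups overlapped. The change was 0.23 (SE 0.09, 95% interval 0.03 to 0.43), with a limma adjusted p of 0.132. Without culture 1 it was 0.32, with an adjusted p of 0.018, so that the call depended on that culture.

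**Figure D2:**
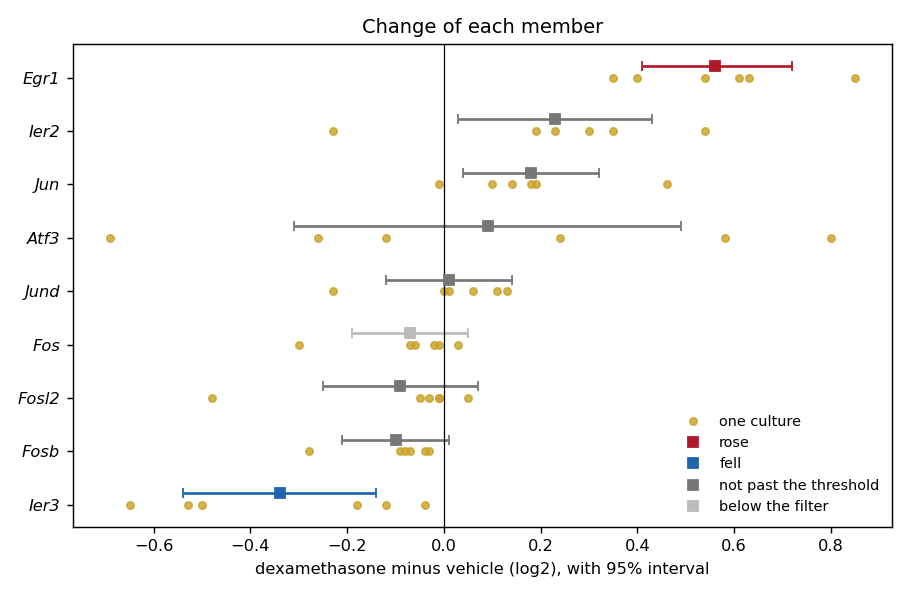
Dexamethasone minus vehicle on the log2 scale for the 9 genes with a value: circles are single cultures, and squares with bars are the limma estimate with its 95% interval, coloured by the call. Egr1 at 0.56 and Ier3 at -0.34 passed the threshold; Fos, in pale grey, comes from the fit without the filter.

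**Figure D3:**
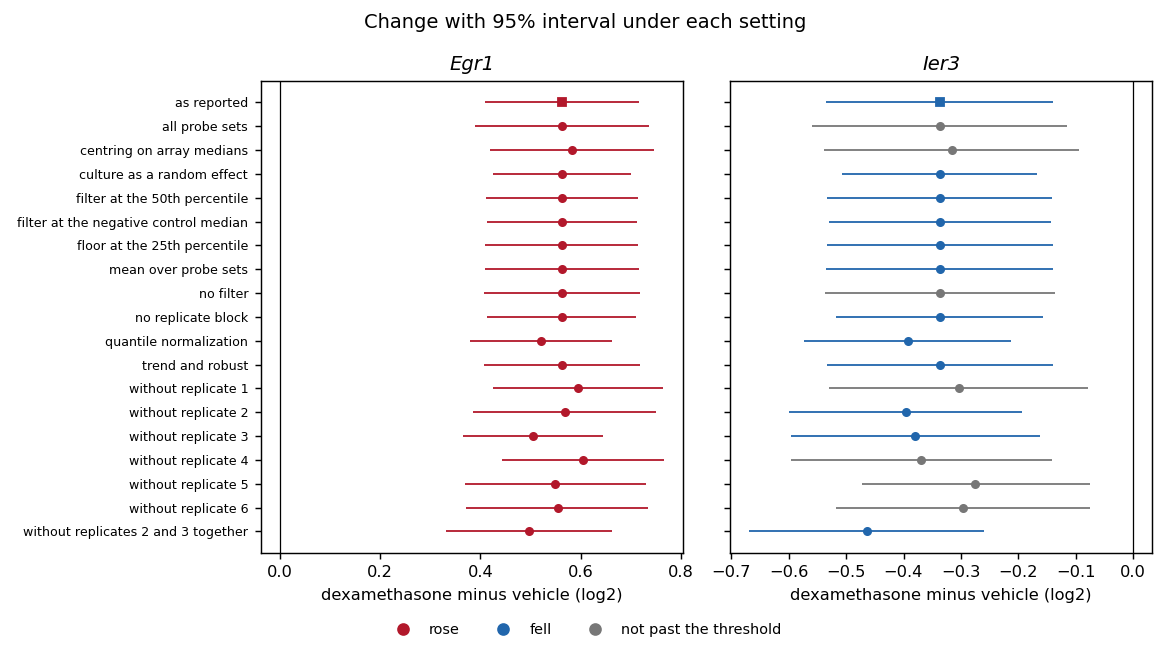
Change of Egr1 (left) and Ier3 (right) on the log2 scale with its 95% interval, as reported (square) and under 18 other settings (circles); grey marks settings in which the adjusted p was not under 0.05. Egr1 passed under all 18, with changes of 0.50 to 0.61, and Ier3 under 11.

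The 6 genes with a mean above the mean negative control median (Jun, Jund, Egr1, Ier2, Ier3 and Atf3) shared a smaller spread between cultures under dexamethasone. The SD was smaller in dexamethasone than in vehicle for 6 of 6, against 58.3% of the 12985 tested genes with such a mean. The median SD of the 6 was 0.128 in dexamethasone and 0.230 in vehicle, and that of the 12985 genes was 0.108 in dexamethasone and 0.120 in vehicle. No test was made of this difference, and the genes were measured on the same arrays. Among the dimmer genes left out, the SD in dexamethasone and in vehicle was 0.11 and 0.04 for Fos. It was 0.06 and 0.06 for Fosb, and 0.08 and 0.14 for Fosl2. The cultures that stood out differed by gene: vehicle culture 2 was lowest for Jun and highest for Atf3 and Fosl2, and vehicle culture 3 was lowest for Atf3 and Egr1.

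Profiles close to those of the 2 most variable genes were sought over the 12 arrays, by the root mean square distance between gene-centred log2 values. Closest to Egr1 were Znrf1, at a distance of 0.085, Ttc3, at 0.093, and Dnah12, at 0.094, each of which rose, by 0.57, 0.51 and 0.56. The distance takes in the difference between treatments, so that genes close to Egr1 had to change much as it did. Closest to Atf3 were Gm11468, at 0.149, Cabp4, at 0.165, and Mir7228, at 0.168, and none of these 3 passed the threshold. Dnah12, Gm11468 and Cabp4 were dim, with mean levels of 5.64, 5.91 and 5.76, below the negative control medians.

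Promoter windows of 250 bases before to 50 bases after the start were found in RefSeq (GRCm38.p6) for 8 of the 10 genes, Egr1 and Ier2 being the others. The 3 windows below are shown because they belong to the archetypal but dim Fos (chr12:85473640-85473939, plus strand), the bright Jun (chr4:95052173-95052472, minus strand) and Ier3, which fell (chr17:35821463-35821762, plus strand). Capitals mark matches to the motifs searched, on either strand: the single repeat of the glucocorticoid response element, TGTTCT, its full palindrome, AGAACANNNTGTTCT, which contains that repeat, the AP-1 site TGANTCA, the Jun-type AP-1 site TGACATCA, the core of the cyclic AMP response element, TGACG, and the TATA box, TATAAA.
Fos: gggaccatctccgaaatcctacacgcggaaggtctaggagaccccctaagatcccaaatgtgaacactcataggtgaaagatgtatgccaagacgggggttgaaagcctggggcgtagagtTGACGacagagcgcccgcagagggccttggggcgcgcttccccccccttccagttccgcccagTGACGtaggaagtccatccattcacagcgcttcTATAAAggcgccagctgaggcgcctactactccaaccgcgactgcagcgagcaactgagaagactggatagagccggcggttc
Jun: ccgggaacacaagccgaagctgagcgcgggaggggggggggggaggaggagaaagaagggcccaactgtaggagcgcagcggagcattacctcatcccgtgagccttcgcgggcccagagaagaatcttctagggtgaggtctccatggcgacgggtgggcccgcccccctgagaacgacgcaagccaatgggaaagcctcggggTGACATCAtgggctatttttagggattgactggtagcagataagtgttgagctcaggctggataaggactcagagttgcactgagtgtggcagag
Ier3: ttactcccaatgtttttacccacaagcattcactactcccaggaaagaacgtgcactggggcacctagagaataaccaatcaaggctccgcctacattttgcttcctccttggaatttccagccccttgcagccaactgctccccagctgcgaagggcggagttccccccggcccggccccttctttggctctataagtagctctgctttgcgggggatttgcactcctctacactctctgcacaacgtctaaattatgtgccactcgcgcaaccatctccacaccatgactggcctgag

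The Fos window held TGACG at -129 and -66 and TATAAA at -33, counted from the start site to the first base of each match. The Jun window held TGACATCA at -45, and it was the only one of the 8 windows with it, against 3.62% of the 32851 windows in the table. TGACG was in 4 of 8 windows (Fos, Fosb, Junb and Atf3), against 20.8% of all windows. TATAAA was in 2 of 8 (Fos and Junb), against 13.6%. In the Junb window TATAAA began at the start site itself, at position 1, and not before it as in Fos. No window of the 8 held the AP-1 site TGANTCA, found in 7.81% of all windows. None held the single repeat TGTTCT, found in 19.0%, and none the full palindrome, found in 0.00913%. The Ier3 window held none of the motifs. A match or its absence describes these letters in these windows only.

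Of 8 other AP-1 family and small MAF genes tested, 1 fell and none rose, with a median change of 0.01. That is 12.5% past the threshold, near the 12.0% of all genes tested. The one that fell was Batf, whose product pairs with JUN proteins in lymphocytes and other blood cells. Batf averaged 8.67 ± 0.13 in dexamethasone and 9.06 ± 0.23 in vehicle (log2, SD, n = 6), a change of -0.39 with a limma adjusted p of 0.0172, lower in 6 of 6 cultures. Under 15 of 18 other settings it passed, and without culture 5 or 6 it did not. Among the list's 9 genes with a value, 5 were dimmer than the median negative control on every array. Fosl1, which encodes FRA-1, lay below the filter.

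Among 32 other immediate early genes, 12 rose, 2 fell and 18 did not pass, with a median change of 0.00. Past the threshold were 43.8%, against 12.0% of all genes tested. The list was chosen with earlier results of these data known, so these shares are not a test of it. With the filter set at the negative control median, 13 of its 22 genes rose and 3 fell, while 3427 of all 13050 genes passed. Zfp36l2, which encodes an RNA-binding protein that speeds the decay of AU-rich messages, rose most, to 14.13 ± 0.14 in dexamethasone against 12.04 ± 0.13 in vehicle, a change of 2.09. The small GTPase gene Rhob rose by 1.92, the growth arrest gene Gadd45a by 1.68 and the transcription factor gene Klf2 by 1.48. Each of these 4 rose in 6 of 6 cultures without overlap between the groups, with a limma adjusted p of at most 5.53e-05. Those that fell were Ccn1, a secreted matrix protein gene (-0.54, adjusted p of 0.000433), and Ifrd1 (-0.16, adjusted p of 0.0421), and Ifrd1 passed under only 7 of 18 other settings. The nearest relatives of Egr1 did not pass: Egr2 changed by -0.18, Egr3 by -0.02 and Egr4 by -0.14, with limma adjusted p of 0.26, 0.795 and 0.246. Egr2 was brighter than the median negative control on 2 vehicle arrays and no dexamethasone array, and Egr3 on 2 and 1. Levels this low limit what the arrays can show of Egr2 and Egr3. The NR4A receptors Nr4a1, Nr4a2 and Nr4a3 changed by -0.05, 0.00 and -0.07 and did not pass, and Nr4a1 and Nr4a3 were dimmer than the median negative control on every array. Of the 32 genes, 8 were dimmer than the median negative control on every array. The number that rose was 7 without cultures 2 and 3 together and 7 when all probe sets were fitted, and lay between 9 and 12 when 1 culture was left out. The number that fell was 1 without culture 1, 3, 4, 5 or 6.

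**Figure D4:**
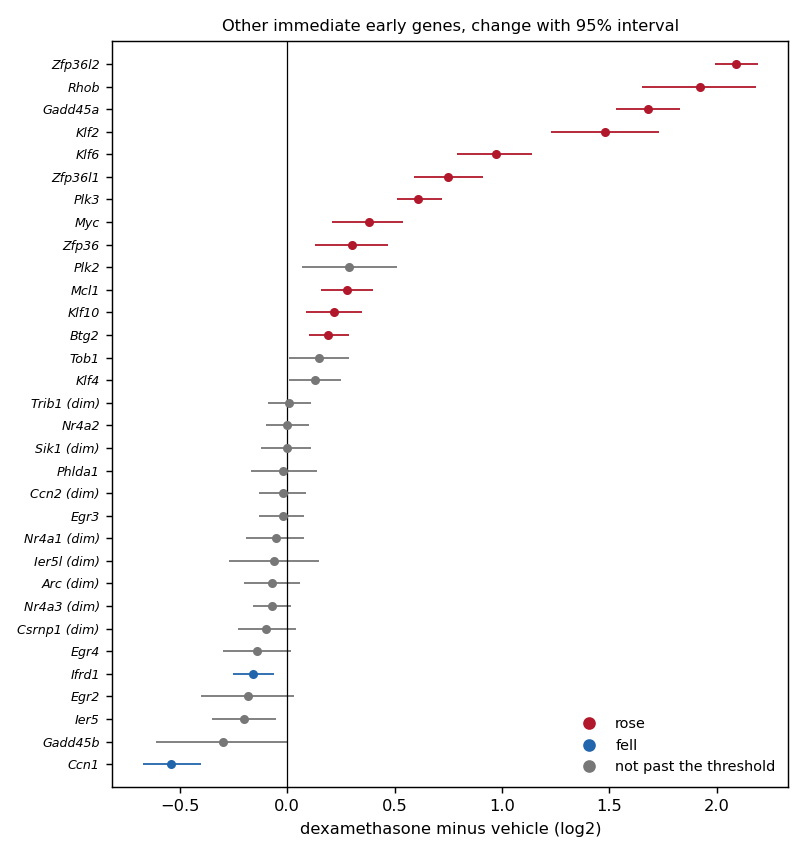
Dexamethasone minus vehicle (log2) with its 95% interval for the 32 other immediate early genes, coloured by the call; "dim" marks genes dimmer than the median negative control on every array. Values ran from -0.54 for Ccn1 to 2.09 for Zfp36l2, and the dim genes lie near 0.

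Upstream of the members, 22 kinase, serum response and CREB factor genes were tested, of which 1 rose and 2 fell. This share of 13.6% was near the 12.0% of all genes tested that passed. Srf, the serum response factor that binds the promoters of Fos and Egr1, was 9.03, 9.02, 8.98, 9.20, 9.03 and 8.72 in cultures 1 to 6 with dexamethasone, against 9.70, 9.40, 9.56, 9.50, 9.58 and 9.29 with vehicle. Every dexamethasone array lay below every vehicle array, and the change was -0.51 (SE 0.06, limma adjusted p of 0.000643). Elk1, a partner of SRF, fell by 0.21 with an adjusted p of 0.0217, a call that held under 13 of 18 other settings. Map2k3, which activates p38, rose by 0.77 with an adjusted p of 7.9e-05. After quantile normalization 8 of the 22 fell, and without culture 3 or 5 only 1 did.

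The MAP kinase phosphatases, which switch the kinases off, changed in both directions: 2 of 9 rose and 2 fell. Of these 9 genes 44.4% passed, against 12.0% of all genes tested. Because the list was chosen with earlier results known, this share is no test of it. Dusp1 was 9.46 ± 0.39 in dexamethasone and 7.31 ± 0.17 in vehicle (log2, SD, n = 6), a rise of 2.15 with a limma adjusted p of 8.42e-05, and Dusp10 rose by 0.52. Dusp4 and Dusp6, both known as feedback inhibitors induced by ERK signalling, fell by 0.62 and 0.35, with limma adjusted p of 0.00271 and 0.00567. Without cultures 2 and 3 together 1 phosphatase gene fell.

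Of 19 tested genes known to be driven by AP-1 in other cells, 2 rose, 2 fell and 15 did not pass, with a median change of -0.04. Past the threshold were 21.1%, against 12.0% of all genes tested, in a list chosen with earlier results known. The interleukin 1 alpha gene Il1a fell to 12.55 ± 0.19 in dexamethasone, against 13.68 ± 0.23 in vehicle, and the chemokine gene Ccl2 fell to 8.45 ± 0.15 against 9.15 ± 0.23 (log2, SD, n = 6). The adhesion receptor gene Cd44 rose by 0.29 and the growth factor gene Vegfa by 0.16, with limma adjusted p of 0.00412 and 0.0482. The call of Vegfa held under 5 of 18 other settings, and when any 1 culture was left out 1 gene of the list rose. Il1b, Il6 and Ptgs2, with changes of 0.07, 0.07 and 0.20, did not pass. Of the list's 22 genes with a value, 9 were dimmer than the median negative control on every array, among them the collagenase gene Mmp13 and the stromelysin genes Mmp3 and Mmp10.

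**Figure D5:**
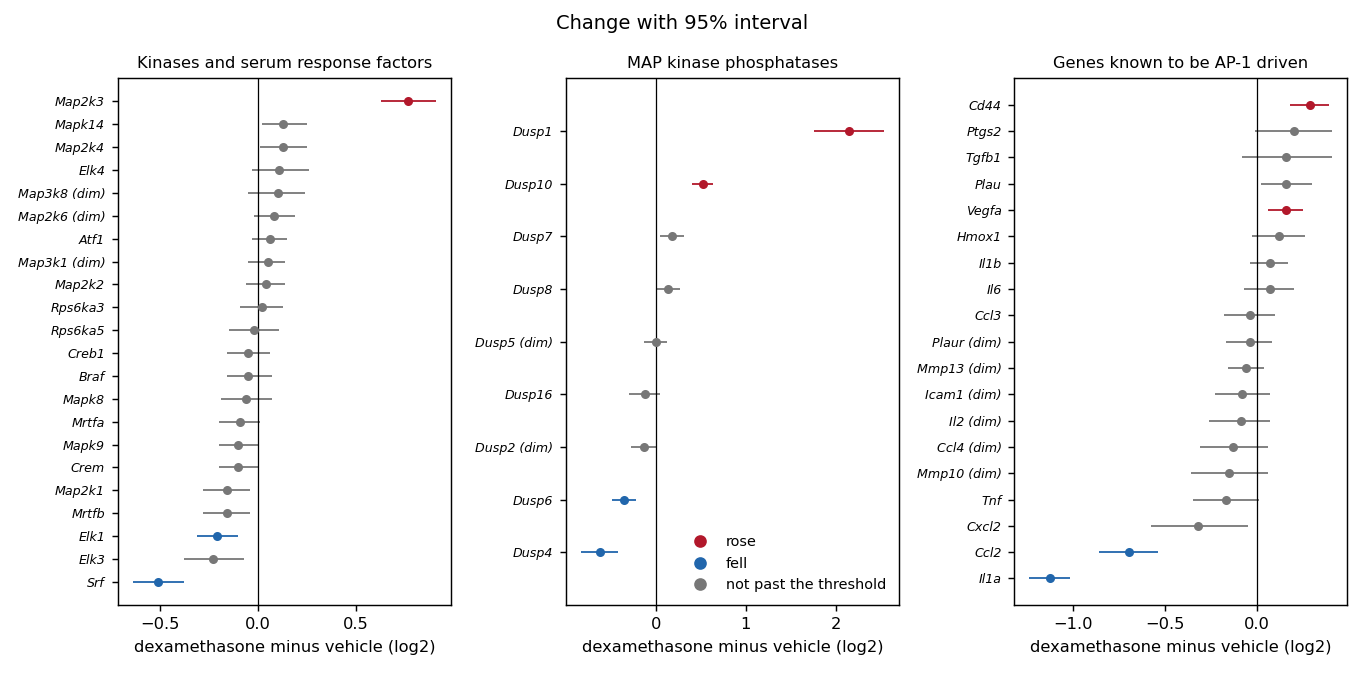
Dexamethasone minus vehicle (log2) with its 95% interval for kinases and serum response factors (left), MAP kinase phosphatases (middle) and genes known to be driven by AP-1 (right), coloured by the call; "dim" marks genes dimmer than the median negative control on every array and the 3 axes differ in scale. Dusp1 rose most among them, by 2.15, and Il1a fell most, by 1.13.

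Among 11 genes for proteins that bind AP-1 or govern its turnover, 4 rose and 1 fell. These were 45.5% of the list, against 12.0% of all genes tested. Since the list was chosen with earlier results known, its share is not a test. The number that rose was 2 without culture 1, 3 or 4 and after quantile normalization, and 1 with all probe sets fitted or without cultures 2 and 3 together. Under the last 2 settings none fell. Tsc22d3, which encodes GILZ, a protein known to bind FOS and JUN, was 11.39 ± 0.14 in dexamethasone and 8.91 ± 0.11 in vehicle (log2, SD, n = 6), a rise of 2.48 with a limma adjusted p of 7.49e-08. Nfatc1 and Cebpb, whose products bind DNA together with AP-1, rose by 0.35 and 0.31, with limma adjusted p of 0.0122 and 0.0205, and Cebpb passed under 12 of 18 other settings. Ep300, a coactivator gene, rose by 0.17 with a limma adjusted p of 0.048 and passed under 8 of 18. Ncoa1, a nuclear receptor coactivator gene, fell by 0.23 (adjusted p of 0.0125). Itch and Fbxw7, which encode ubiquitin ligase components that target JUN, changed by 0.14 and -0.12 and did not pass.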

How the data were processed

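The deposited table holds the authors' log2 values for 72688 probe sets on 12 single-colour arrays made, per the labels' protocols, from 50 ng of total RNA as biotin-labelled cDNA. Their size and range show the log2 scale. How they were background-corrected, summarized and normalized is not stated in the labels. Medians lay within 0.099 of each other, so the values were used as deposited. Arrays have no read depth, and their number limits the precision.

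Probe sets with 1 symbol in the array's annotation numbered 30604, and 22818 were matched by gene number to RefSeq (GRCm38.p6), which updated 827 symbols. Genes were tested with limma 3.58.1 (R 4.3.3), two-sided, with culture as a block, and p-values were adjusted by the Benjamini-Hochberg method over the 24265 genes. The 95% intervals are not adjusted for the number of genes. The protocol says that each culture was split between treatments. As a check, deviations of same-numbered arrays correlated over genes with r from 0.049 to 0.247; 4 of 6 pairs were over 0.1, and in 3 of 6 an array matched its own number best.

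The members, the 17 lists and the tests were chosen with earlier results of these data known. Named genes are the members, up to 4 called genes with the largest change per list, Tsc22d3, Srf and Dusp1, and the 3 nearest profiles to the 2 most variable members, plus S100a8 and S100a9. Genes named without a call (such as Egr2 to Egr4, the Nr4a genes, Il1b, Il6, Ptgs2, Itch, Fbxw7, Atf4, Ddit3 and the Mmp genes) were chosen after their values were seen. So were Ccn1, Ifrd1, Ep300, Camp and Ltf. Alternatives covered scaling, filters, block, variance prior, probe sets and left-out cultures.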

Additional observations from a re-analysis of the deposited data

Results flagged for a closer look

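For 9 genes, the dexamethasone values, the vehicle values and the paired differences were each examined for a culture far from the other 5, by the gap to its neighbour relative to the whole range (Dixon's 95% criterion). Of 27 such groups 6 met it, where chance gives about 1 in 20 for independent groups. The 27 are not independent, since the differences are built from the values of both treatments and all genes share the same arrays. Culture 2 accounted for 4 of them. Its vehicle value of Jun was 9.98, against 10.47 to 10.66 in the other cultures. Its vehicle value of Fosl2 was 5.89, against 5.51 to 5.63. Its paired difference was -0.48 for Fosl2, against -0.05 to 0.05, and -0.30 for Fos, against -0.07 to 0.03. The paired difference of Fosb was -0.28 in culture 3, against -0.09 to -0.03 in the others, and that of Jund was -0.23 in culture 5, against 0.00 to 0.13. Fos, Fosb and Fosl2 were dimmer than the median negative control on every array.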

How the results depend on the processing

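Of 18 other settings, the one without cultures 2 and 3 together was added after seeing the data. Egr1 kept its rise and its call under all 18, with changes from 0.50 to 0.61 and limma adjusted p from 3.11e-05 to 0.0117. The number of tested members past the threshold was 2 as reported. It was 1, Egr1 alone, with no filter (Ier3 at an adjusted p of 0.0505), with all probe sets fitted (0.135) and after centring on array medians (0.0774), and it lay between 1 and 2 when 1 culture was left out. Ier3 kept its direction under all 18. Jun, Jund, Fosb, Fosl2 and Atf3 passed under none of the limma settings in which they were tested, and Ier2 passed without culture 1 alone. The sign of the change of Atf3 and of Jund, neither called, was not the same under all of them, with ranges from -0.05 to 0.25 and from -0.01 to 0.06. With an exact sign-flip permutation test of the 6 paired differences, Egr1, Ier3 and Fosb had p = 0.03125, the smallest that 6 pairs allow and not adjusted, so Fosb passed there and not in the fits. Without the replicate block 2452 genes passed, against 2900 with it, and the members past the threshold were again 2, so that the paired and unpaired fits gave the same number. Leaving out 1 culture gave between 1876 and 2334 genes, the lowest without culture 3, and leaving out cultures 2 and 3 together gave 1270. Each of the 9 members with a value had 1 probe set with its symbol alone, so no other probe set could be tried. Values near the negative control median limit what could be seen of Fos, Fosb, Fosl2 and Jund.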

Other observations

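Genes of the stress responses in which Atf3 takes part went both ways: of 9 tested, 2 rose and 2 fell. This was 44.4%, against 12.0% of all genes tested, in a list chosen with earlier results known. Ppp1r15a, which encodes the phosphatase subunit GADD34, rose by 0.74, and Sesn2 rose by 0.31. The asparagine synthetase gene Asns fell by 0.49 and the chaperone gene Hspa5 by 0.35, and limma adjusted p for these 4 was at most 0.0108. Without cultures 2 and 3 together 1 of the 9 rose. The transcription factor genes Atf4 and Ddit3 changed by -0.12 and -0.14 and did not pass. Of 7 heat shock genes, often read as signs of cell handling together with immediate early genes, 1 rose and 1 fell. These 2 made up 28.6% of the 7. The small heat shock protein gene Hspb1 rose, to 8.41 ± 0.13 in dexamethasone against 7.48 ± 0.21 in vehicle (log2, SD, n = 6). Hsp90aa1 fell by 0.19, a call that held under 10 of 18 other settings and was lost without culture 1, 3, 4, 5 or 6.

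Markers of other cells were counted as well, beside 7.39% of all genes tested that rose and 4.56% that fell. Of 9 monocyte and macrophage markers 1 fell, of 7 mast cell and basophil markers 2 rose and 1 fell, of 7 lymphocyte markers 1 rose, and of 7 stromal and endothelial markers 1 fell. None of 4 erythroid markers passed in the limma fit, where 1 had an unadjusted p under 0.05, and 1 rose without culture 6. The lymphocyte marker did not pass without culture 1, 3, 4, 5 or 6, and the mast cell marker that fell did not pass without culture 1, 2, 3, 4 or 6. Of 10 megakaryocyte markers 1 rose and 1 fell.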
